A study of Mus musculus with 6 samples.

Results

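The genes described here are 40 genes of the G2/M transition, mitosis and cytokinesis, taken by symbol from a fixed list out of the 18158 features of a mouse heart expression table. All 40 were listed and above 0 in at least 1 library. The list holds the cyclin-dependent kinase core, the spindle checkpoint, kinetochore and centromere proteins, the chromosomal passenger complex, condensin subunits and other proteins of mitotic chromosomes, spindle motors, and the proteins of the central spindle and the contractile ring. The list was drawn up with earlier results of these data known, though its rule uses gene symbols and no measured value.

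The tissue was ventricle from 3-month-old mice of the outbred CD1 stock. A control group of 3 mice, called Vehicle, had daily injections of PBS. A treated group of 3 mice, called Paro/Neo, had the aminoglycosides paromomycin and neomycin, antibiotics that bind ribosomal RNA, at 150 mg/kg by intraperitoneal injection 2 times a day, and both groups were treated for 14 days. The study asked how expression differs where this treatment suppresses the activity of Meis1 and Hoxb13, transcription factors known to hold heart muscle cells out of the cell cycle, under a title about inducing heart regeneration. Neither group was injured as far as the labels say, the number of injections per day differed between the groups, and the mRNA came from whole ventricle, with muscle and all other cells together. In such bulk tissue, fewer cells of a type and less RNA per cell cannot be told apart.

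As background, a cell enters mitosis when Cdk1 bound to cyclin A or cyclin B is freed of its inhibitory phosphates. The aurora and polo kinases then drive chromosome condensation and spindle assembly, the spindle checkpoint holds the cell until every kinetochore is attached, and the anaphase-promoting complex with Cdc20 ends mitosis by having cyclin B and securin destroyed. Transcripts of these genes are kept low in resting cells by the DREAM complex, which binds a promoter element called CHR (cell cycle genes homology region), and are raised in G2 by B-Myb and FoxM1 together with the CCAAT-binding factor NF-Y. Most heart muscle cells of an adult mouse no longer divide, and dividing cells in the adult ventricle are mostly endothelial cells, fibroblasts and leukocytes.

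Promoters are shown first, since these 2 sequence elements are what the genes are known to share outside their proteins. RefSeq (GRCm38.p6, the same build as mm10) gave a promoter, from 250 bases before to 50 bases after the transcription start, for 33 of the 40 genes. The letters TTTGAA, the core of the CHR, stood on either strand in 24 of these 33 (72.7%), against 17.9% of all 32851 promoters in the same table. The letters CCAAT stood on either strand in 25 (75.8%, against 37.4%), and both motifs in 21 (63.6%, against 6.95%). A gene was counted if any of its listed promoters held the motif, whereas the shares over all promoters count each promoter once, so the 2 are not fully alike. A match describes the letters in this window and does not show a bound factor. Below are the promoters of 3 of the 4 genes with the smallest p-values, Ube2c, Prc1 and Nuf2, and of Cdk1 and Ccnb2, the kinase and the cyclin at the head of the pathway. Each is read 5′ to 3′ on the gene's own strand, with capitals for TTTGAA or CCAAT and for their reverse complements TTCAAA and ATTGG. In Ube2c a CCAAT and an ATTGG overlap in the run CCAATTGG. Ube2c lies at chr2:164769679-164769978 on the plus strand, Prc1 at chr7:80294201-80294500 on the plus strand, Ccnb2 at chr9:70421505-70421804 on the minus strand, Cdk1 at chr10:69352863-69353162 on the minus strand and Nuf2 at chr1:169531415-169531714 on the minus strand.
Ube2c: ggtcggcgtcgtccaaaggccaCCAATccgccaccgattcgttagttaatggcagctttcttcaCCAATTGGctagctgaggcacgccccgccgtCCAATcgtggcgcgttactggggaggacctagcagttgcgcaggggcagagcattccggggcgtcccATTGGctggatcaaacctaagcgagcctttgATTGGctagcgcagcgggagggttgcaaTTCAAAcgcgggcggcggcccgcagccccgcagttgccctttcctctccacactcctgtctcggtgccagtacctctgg
Prc1: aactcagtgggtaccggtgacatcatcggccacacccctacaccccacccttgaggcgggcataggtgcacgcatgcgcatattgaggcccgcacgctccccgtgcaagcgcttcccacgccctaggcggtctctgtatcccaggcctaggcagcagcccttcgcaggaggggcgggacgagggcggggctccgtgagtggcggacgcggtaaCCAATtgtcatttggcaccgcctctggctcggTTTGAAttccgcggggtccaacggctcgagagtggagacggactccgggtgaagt
Ccnb2: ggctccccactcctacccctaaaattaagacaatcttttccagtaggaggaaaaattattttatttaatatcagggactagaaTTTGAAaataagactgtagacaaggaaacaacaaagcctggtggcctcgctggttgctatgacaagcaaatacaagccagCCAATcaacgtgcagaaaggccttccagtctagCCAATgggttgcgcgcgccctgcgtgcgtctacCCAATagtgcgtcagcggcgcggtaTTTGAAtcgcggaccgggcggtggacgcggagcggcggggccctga
Cdk1: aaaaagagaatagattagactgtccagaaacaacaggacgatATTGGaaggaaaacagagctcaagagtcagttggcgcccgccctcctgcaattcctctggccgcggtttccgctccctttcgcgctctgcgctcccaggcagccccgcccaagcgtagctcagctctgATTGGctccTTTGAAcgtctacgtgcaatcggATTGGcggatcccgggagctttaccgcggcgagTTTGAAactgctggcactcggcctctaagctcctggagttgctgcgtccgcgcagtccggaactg
Nuf2: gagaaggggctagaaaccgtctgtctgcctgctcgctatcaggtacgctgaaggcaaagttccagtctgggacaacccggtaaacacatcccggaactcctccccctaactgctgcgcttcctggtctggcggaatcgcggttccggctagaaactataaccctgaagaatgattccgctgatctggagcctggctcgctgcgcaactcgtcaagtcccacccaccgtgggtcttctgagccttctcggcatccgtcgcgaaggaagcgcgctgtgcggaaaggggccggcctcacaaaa
Ccnb2 and Cdk1 each hold, over both strands, 2 copies of TTTGAA and 3 of CCAAT, Prc1 holds 1 of each, and the Nuf2 window holds neither. Of the 24 genes with TTTGAA 21 had a lower mean after Paro/Neo, with a median log2 difference of -0.22, and of the 9 without it 7 had a lower mean, with a median of -0.26.

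Values below are in TPM, a level corrected for transcript length and brought to 1 common total in every library. A difference is the Paro/Neo mean minus the Vehicle mean on the log2(TPM + 1) scale, which understates the change of low genes, and each value after ± is an SD over the 3 mice of a group. Reads are whole reads inferred from the ratios of the TPM values, and they are lower estimates. The libraries held 9556387 to 15969980 such reads. Paro/Neo replicate 1 stood apart in the whole table, with a mean correlation to the other libraries of 0.9765 against 0.9822 to 0.9855. Of 13314 genes tested with limma, 14 (0.105%) passed an adjusted p of 0.05, 12 of them higher and 2 lower after Paro/Neo. Leaving out Paro/Neo replicate 2 brought this count to 30, leaving out Vehicle replicate 1 to 1, and leaving out either Vehicle replicate 3 or Paro/Neo replicate 1 to 0. None of the 14 is a mitotic gene of the list.

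The mitotic genes were expressed at low levels in both groups, and most were lower after Paro/Neo, but none of those tested passed the adjusted threshold. Of the 40 genes, 15 had a mean under 1 TPM, 20 had a mean from 1 to 5 TPM, and 5 (Cenpa, Smc4, Bub3, Cenpf and Mad2l1) were at 5 TPM or more. The group mean was lower after Paro/Neo for 34 genes (85%), against 53.8% of all 17574 features above 0, and higher for 6 (Aurka, Cenpa, Cenpe, Hmmr, Smc4 and Cit). The median difference over the 40 was -0.25, against -0.01 over all features. As a ratio of mean TPM the median was 0.724, and the ratios ran from 0.198 for Cks2, with at most 3 reads in a library, to 1.38 for Cit. Genes of 1 program vary together from mouse to mouse, so these 40 are not 40 separate observations of the treatment.

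**Figure D1:**
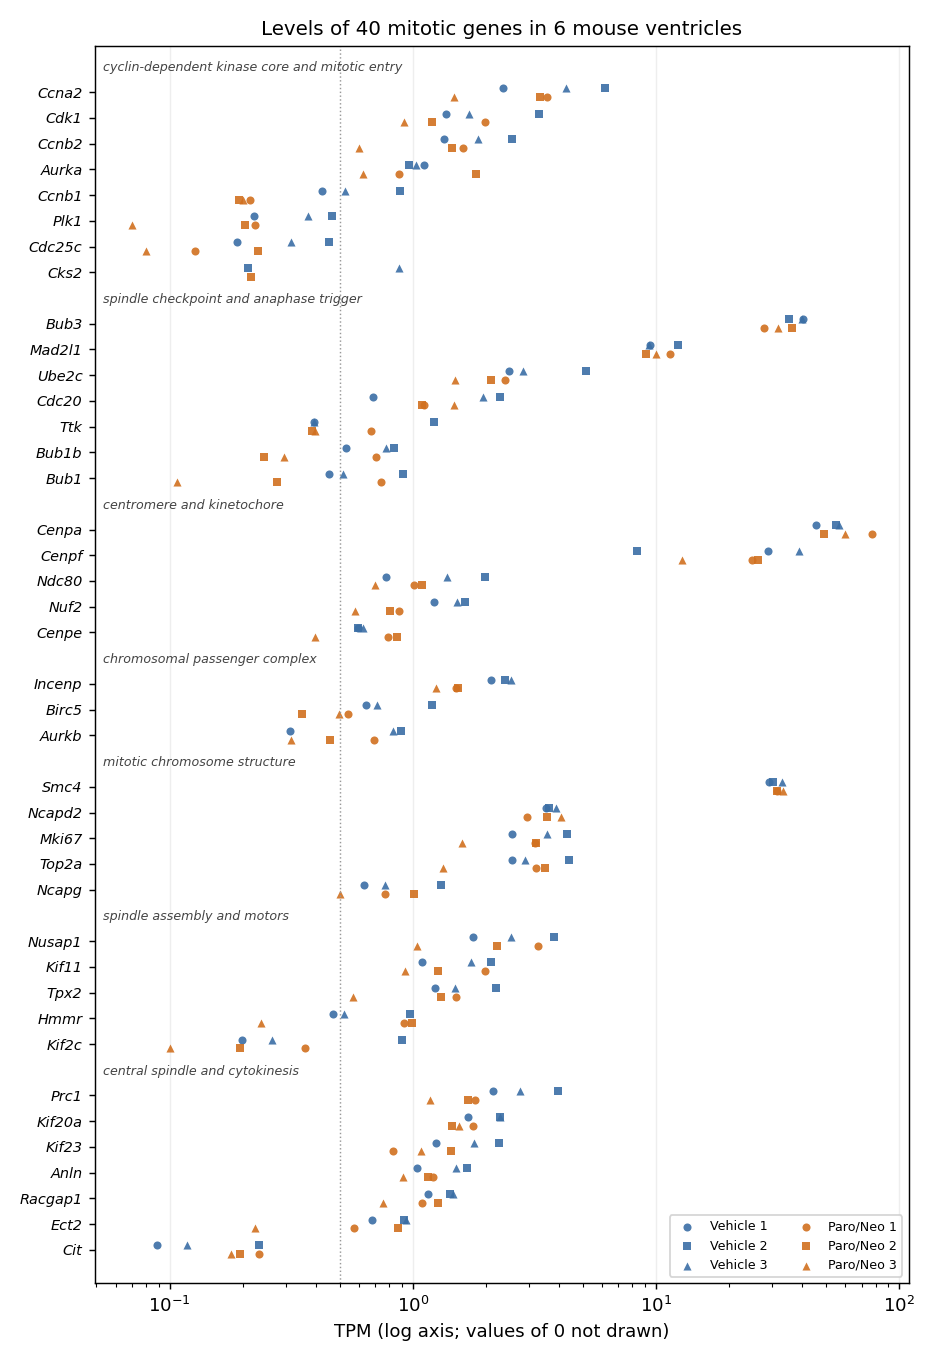
TPM of the 40 genes in each of the 6 libraries, on a log axis and grouped by role, with Vehicle in blue and Paro/Neo in orange and 1 marker shape per replicate number. The dotted line is the mean of 0.5 TPM that a gene needed to be tested, and the blue squares of Vehicle replicate 2 and the orange triangles of Paro/Neo replicate 3 sit at the ends of many rows.

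Tested were the 33 genes with a mean of at least 0.5 TPM over the 6 libraries, and 0 of them passed the adjusted threshold in limma, with adjusted p from 0.473 to 0.996. Not tested for their low level were Ccnb1, Cdc25c, Cks2, Plk1, Bub1, Kif2c and Cit. At an unadjusted p under 0.05, 4 of the 33 (12.1%) were lower (Incenp, Nuf2, Prc1 and Ube2c), against 4.29% of all tested genes, and 0 were higher, against 3.3%. Without Vehicle replicate 1 there were 8 such lower genes, against 3.39% of all tested genes. Without Vehicle replicate 2 there were 2, against 2.84%, and with Paro/Neo replicate 3 left out there were also 2, against 5.51%. With voom on the inferred reads 0 genes passed the adjusted threshold and 3 were lower at an unadjusted p under 0.05, against 4.65% of all tested genes. In 6 genes (15%) every Paro/Neo library was below every Vehicle library, namely Ccnb1, Nuf2, Birc5, Ube2c, Prc1 and Incenp, against 7.02% of all features. The opposite order occurred in 0 of the 40, against 5.5% of all features.

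The Cdk1 and cyclin core was lower in 7 of 8 genes, with a median difference of -0.34, and 0 of its 4 tested genes passed the test. Ccna2 encodes cyclin A2, which partners Cdk2 in S phase and Cdk1 in G2, and it had the highest level of this group. It was at 2.35, 6.17 and 4.27 TPM in Vehicle replicates 1 to 3 and at 3.56, 3.35 and 1.48 TPM in Paro/Neo replicates 1 to 3. The groups overlap: Vehicle replicate 1 lay below 2 of the 3 treated hearts, Vehicle replicate 2 was highest and Paro/Neo replicate 3 lowest. The means of 4.26 ± 1.91 and 2.80 ± 1.14 TPM differed by -0.45 (SE 0.324, limma adjusted p = 0.765). Exons of Ccna2 overlap those of Exosc9 on the opposite strand over 510 bases, and Exosc9 was at 60.0 ± 4.72 and 66.7 ± 15.1 TPM. The strand setting of the counting is not given in the sources used here, nor is the handling of reads that overlap 2 genes. It is therefore not known whether reads from the shared bases were counted for Ccna2, for Exosc9, for both or for neither.

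Cdk1, the kinase that starts mitosis, was at 1.37, 3.32 and 1.71 TPM in the Vehicle hearts and at 1.99, 1.202 and 0.918 TPM in the Paro/Neo hearts, from 17 to 65 reads. Paro/Neo replicate 1 lay above 2 of the 3 Vehicle hearts, so the groups overlap. The difference was -0.38 (SE 0.262, adjusted p = 0.762), with a 95% interval from -0.98 to 0.23. Ccnb2, cyclin B2, followed the same order of libraries at both ends, with 1.35, 2.56 and 1.85 TPM in Vehicle and 1.60, 1.45 and 0.601 TPM in Paro/Neo. Its difference of -0.41 (SE 0.237) had the smallest p of the tested genes in this group, and the adjusted p was 0.727.

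Ccnb1 encodes cyclin B1, the main mitotic partner of Cdk1, and lies at chr13:100778650-100786570 on the minus strand. It was at 0.422, 0.882 and 0.527 TPM in Vehicle and at 0.213, 0.194 and 0.200 TPM in Paro/Neo. All 3 treated hearts were below all 3 controls, and their ratio of mean TPM, 0.332, was the lowest of the genes with more than 5 reads in all. The values rest on 28 reads in the Vehicle group and 10 in the Paro/Neo group, or 3 or 4 reads in each treated heart. Without a filter on low values its limma adjusted p was 0.521.

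Of the other genes of mitotic entry, Plk1, the polo kinase, was at 0.352 ± 0.122 and 0.166 ± 0.0837 TPM, from 15 and 8 reads in all. Cdc25c, a phosphatase that activates Cdk1, had 12 and 6 reads, and Cks2, a small Cdk1-binding protein, had 4 and 1. With so few reads nothing is said of a difference in these 3. Aurka, the aurora kinase of the spindle poles, was the gene of the group with a higher treated mean, 1.11 ± 0.627 against 1.03 ± 0.0766 TPM. Its treated hearts spread from 0.625 to 1.82 TPM and enclosed the 3 controls.

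All 7 genes of the spindle checkpoint and the anaphase trigger had a lower treated mean, with a median difference of -0.26, and 0 of 6 tested passed. Ube2c is the ubiquitin-conjugating enzyme with which the anaphase-promoting complex marks cyclin B and securin for destruction. It was at 2.49, 5.17 and 2.84 TPM in Vehicle and at 2.39, 2.09 and 1.49 TPM in Paro/Neo, from 9 to 33 reads. The groups do not overlap, but the lowest control and the highest treated heart lie close together. The means of 3.50 ± 1.46 and 1.99 ± 0.456 TPM gave a difference of -0.56 (SE 0.235, adjusted p = 0.643). Exons of Ube2c overlap those of Tnnc2, a troponin of fast skeletal muscle, on the opposite strand over 592 bases. Tnnc2 was at 0.0588 ± 0.102 TPM in Vehicle and at 0 in every Paro/Neo library.

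Bub3, a checkpoint protein that recognises phosphorylated Knl1 at kinetochores and also acts in splicing outside mitosis, had the highest level of the group. It was at 40.3, 35.3 and 39.7 TPM in Vehicle and at 27.7, 36.1 and 31.6 TPM in Paro/Neo. Paro/Neo replicate 2 lay just above Vehicle replicate 2, so the groups overlap by that pair. At 401 to 678 reads per library its counting error is small, and the difference was -0.27 (SE 0.123, adjusted p = 0.666). Mad2l1, whose protein Mad2 binds Cdc20 to hold anaphase back, was at 10.4 ± 1.65 and 10.2 ± 1.16 TPM, a difference of -0.02 with a 95% interval from -0.35 to 0.31. Among the checkpoint kinases and pseudokinases, Bub1b was at 0.715 ± 0.160 and 0.415 ± 0.254 TPM, Bub1 at 0.625 ± 0.247 and 0.374 ± 0.328 TPM, and Ttk at 0.667 ± 0.476 and 0.485 ± 0.164 TPM. Each of these 3 had overlapping groups. Cdc20, the activator of the anaphase-promoting complex, was at 1.64 ± 0.844 and 1.22 ± 0.215 TPM, with its lowest value in Vehicle replicate 1. Its exons share 53 bases with Elovl1 on the opposite strand, at 14.1 ± 1.66 and 10.1 ± 1.44 TPM.

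Of the 5 centromere and kinetochore genes 3 had a lower and 2 a higher treated mean, with a median difference of -0.07 and 0 of 5 past the test. Nuf2 is a subunit of the Ndc80 complex, which holds the ends of spindle microtubules, and its gene lies at chr1:169497934-169531464 on the minus strand. It was at 1.22, 1.64 and 1.52 TPM in Vehicle and at 0.874, 0.808 and 0.578 TPM in Paro/Neo, from 9 to 27 reads. All treated hearts were below all controls. Means of 1.46 ± 0.216 and 0.753 ± 0.155 TPM gave a difference of -0.49 (SE 0.153, adjusted p = 0.501), and the 95% interval, unadjusted, ran from -0.84 to -0.13. Ndc80, which pairs with Nuf2 in the same complex, was at 1.38 ± 0.606 and 0.933 ± 0.204 TPM, and its groups overlap.

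Cenpa, the histone H3 variant that marks centromeres, had the highest level of all 40 genes. It was at 45.7, 54.8 and 56.7 TPM in Vehicle and at 77.0, 49.1 and 59.7 TPM in Paro/Neo, a difference of 0.22 with an adjusted p of 0.777. Paro/Neo replicate 1, the library that stood apart in the whole table, gave the highest value. Cenpf, a large microtubule-binding kinetochore protein, had the widest interval of the tested genes, from -1.26 to 1.13. It was at 28.9, 8.33 and 38.9 TPM in Vehicle and at 24.8, 26.3 and 12.7 TPM in Paro/Neo, from 635 to 2628 reads. Vehicle replicate 2, where most of the other genes were highest, was the lowest of the 6 libraries for Cenpf. Cenpe, the kinetochore motor, was at 0.605 ± 0.0169 and 0.682 ± 0.251 TPM.

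The chromosomal passenger complex, which corrects wrong attachments at the centromere and then moves to the central spindle, was lower in all 3 genes, with a median difference of -0.33 and 0 of 3 past the test. Incenp, its scaffold, lies at chr19:9872296-9899551 on the minus strand and had the smallest p of the 40 genes. It was at 2.09, 2.40 and 2.53 TPM in Vehicle and at 1.499, 1.53 and 1.25 TPM in Paro/Neo, from 26 to 55 reads. The groups are apart and both are tight. Means of 2.34 ± 0.227 and 1.43 ± 0.155 TPM gave a ratio of 0.610 and a difference of -0.46 (SE 0.137, unadjusted p = 0.00991 and adjusted p = 0.473 by limma). The 95% interval, unadjusted, ran from -0.78 to -0.15.

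Birc5, survivin, targets the complex to the centromere. It was at 0.644, 1.196 and 0.715 TPM in Vehicle and at 0.543, 0.350 and 0.497 TPM in Paro/Neo, from 8 to 28 reads. The treated hearts were again all below the controls, with a difference of -0.33 and an adjusted p of 0.701. Aurkb, the kinase of the complex, was at 0.312, 0.894 and 0.831 TPM in Vehicle and at 0.695, 0.458 and 0.316 TPM in Paro/Neo. Its lowest library was a control, Vehicle replicate 1, so the groups overlap, while the other controls were above every treated heart. The difference of -0.16 (SE 0.200, adjusted p = 0.854) rests on 4 to 12 reads per library.

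**Figure D2:**
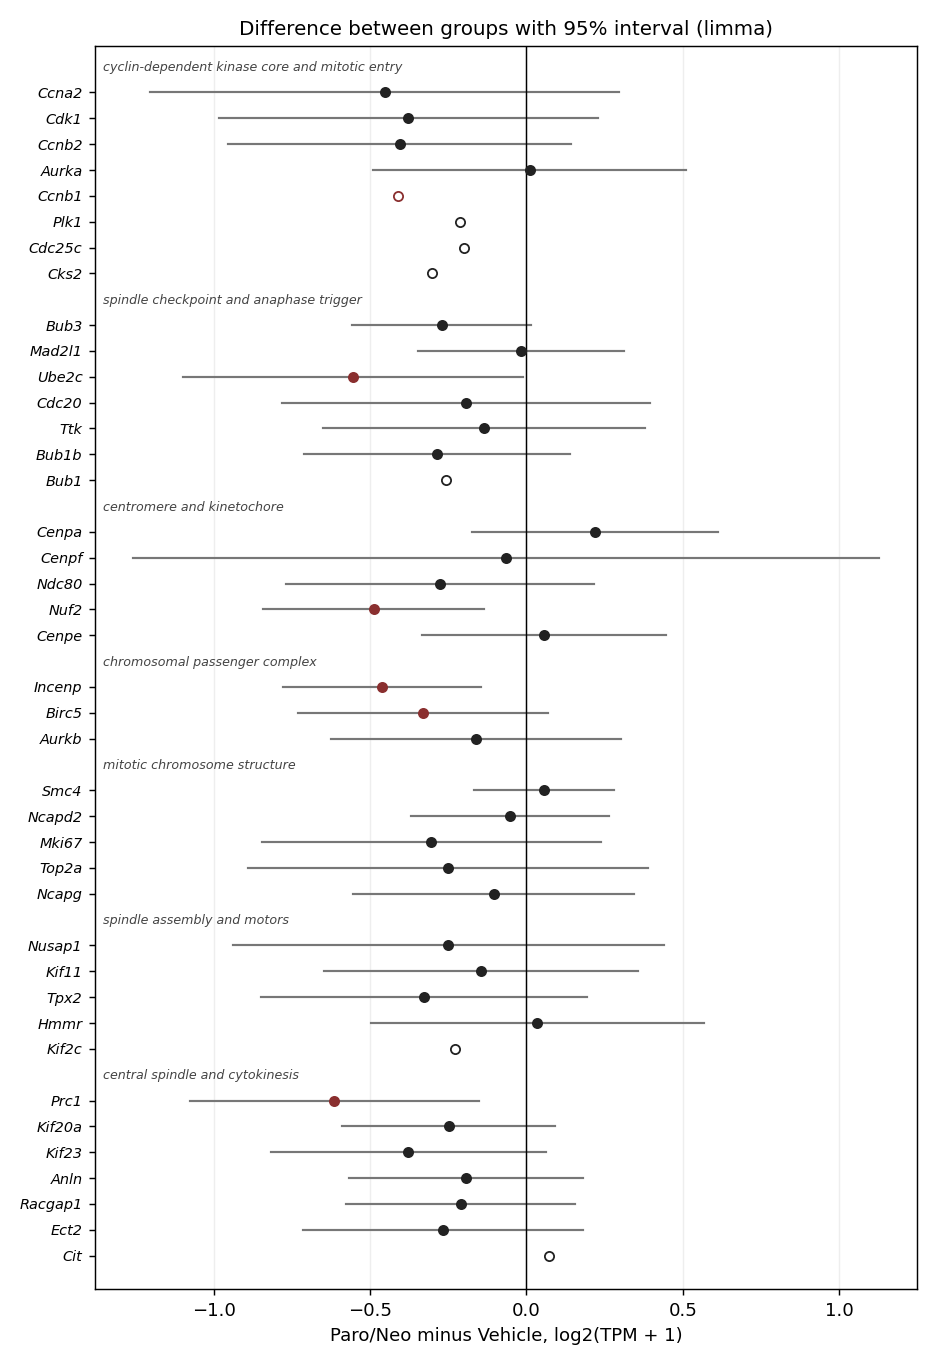
Paro/Neo minus Vehicle on the log2(TPM + 1) scale for each gene, with the 95% interval of the limma fit, unadjusted, as a bar. Open circles without a bar are the 7 genes under the level tested, red marks genes whose groups do not overlap, and the intervals of Incenp, Nuf2, Prc1 and Ube2c alone lie below 0.

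Of the 5 genes of mitotic chromosome structure 4 had a lower treated mean, with a median difference of -0.10 and 0 of 5 past the test. Mki67, the proliferation marker Ki-67 that coats mitotic chromosomes, was at 2.56, 4.30 and 3.57 TPM in Vehicle and at 3.19, 3.22 and 1.59 TPM in Paro/Neo. With 104 to 297 reads it is among the better counted of the low genes. Its groups overlap, and the difference was -0.30 (SE 0.235, adjusted p = 0.776) with a 95% interval from -0.85 to 0.24. Top2a, the topoisomerase that untangles sister chromatids, was at 2.55, 4.39 and 2.89 TPM in Vehicle and at 3.22, 3.49 and 1.33 TPM in Paro/Neo. Here 2 of the 3 treated hearts lay above 2 of the 3 controls. Its difference of -0.25 (SE 0.277, adjusted p = 0.836) became 0.05 without Paro/Neo replicate 3.

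Of the 3 condensin genes, Smc4 and Ncapd2 did not show this order of libraries. Smc4, a core subunit of both condensins, was at 29.2, 30.2 and 33.0 TPM in Vehicle and at 31.3, 31.5 and 33.3 TPM in Paro/Neo, a difference of 0.06 with an interval from -0.17 to 0.28. Ncapd2, a subunit of condensin I, was at 3.68 ± 0.174 and 3.53 ± 0.558 TPM and was highest in Paro/Neo replicate 3. Ncapg, another subunit of condensin I, did show it: it was at 0.900 ± 0.355 and 0.760 ± 0.255 TPM, highest in Vehicle replicate 2 and lowest in Paro/Neo replicate 3. Exons of Ncapg overlap those of Lcorl on the opposite strand over 944 bases, and those of Ncapd2 hold the small RNA gene Scarna10 on the same strand.

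Of the 5 genes of spindle assembly 4 had a lower treated mean, with a median difference of -0.23 and 0 of 4 tested past the threshold, and all 5 were lowest in Paro/Neo replicate 3. Nusap1, which bundles microtubules near chromosomes, was at 1.77, 3.79 and 2.54 TPM in Vehicle and at 3.26, 2.22 and 1.04 TPM in Paro/Neo. Its groups overlap, and the difference of -0.25 (adjusted p = 0.847) became 0.04 without Paro/Neo replicate 3. Its exons share 172 bases with the low gene Oip5 on the opposite strand. Tpx2, which activates aurora A on the spindle, was at 1.23, 2.21 and 1.49 TPM in Vehicle and at 1.501, 1.30 and 0.566 TPM in Paro/Neo. Vehicle replicate 2 and Paro/Neo replicate 3 were at the ends, with the other 4 libraries at 1.23 to 1.501 TPM, and the difference was -0.33 (SE 0.225, adjusted p = 0.762). The spindle motor Kif11 was at 1.64 ± 0.506 and 1.39 ± 0.533 TPM, the microtubule-depolymerising kinesin Kif2c at 0.454 ± 0.387 and 0.218 ± 0.132 TPM, and Hmmr, a spindle pole protein, at 0.652 ± 0.276 and 0.715 ± 0.416 TPM.

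The central spindle and cytokinesis group was lower in 6 of 7 genes, with a median difference of -0.25 and 0 of 6 tested past the threshold. Prc1 crosslinks the antiparallel microtubules of the central spindle, and its gene lies at chr7:80294450-80316259 on the plus strand. It was at 2.14, 3.95 and 2.76 TPM in Vehicle and at 1.80, 1.68 and 1.17 TPM in Paro/Neo, from 23 to 82 reads. All treated hearts were below all controls, and the difference of -0.61 (SE 0.199, adjusted p = 0.509) was the largest in size of the 40. Exons of Prc1 overlap those of Rccd1 on the opposite strand over 911 bases, and Rccd1 was at 3.71 ± 0.516 and 3.42 ± 0.270 TPM.

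The other tested genes of the group were lower by less than Prc1. Kif23 and Racgap1, which form the centralspindlin complex, were at 1.76 ± 0.505 and 1.12 ± 0.306 TPM and at 1.35 ± 0.167 and 1.04 ± 0.260 TPM, and Ect2, the exchange factor for RhoA that centralspindlin recruits, was at 0.847 ± 0.143 and 0.555 ± 0.323 TPM. Their adjusted p ran from 0.694 for Kif23 to 0.774 for Racgap1, and the groups of all 3 overlap. Anln, the actin-binding ring protein anillin, was at 1.04, 1.67 and 1.501 TPM in Vehicle and at 1.21, 1.16 and 0.911 TPM in Paro/Neo. Only Vehicle replicate 1 fell within the treated range, and the difference was -0.19 (SE 0.162, adjusted p = 0.786). Kif20a, a central spindle motor, was at 2.09 ± 0.344 and 1.59 ± 0.165 TPM, with 1271 bases of exon shared with Cdc23 on the opposite strand, itself at 20.2 ± 0.311 and 18.1 ± 0.711 TPM. Cit, citron kinase, had 20 and 30 reads in all and was the one gene of this group with a higher treated mean, 0.202 ± 0.0277 against 0.146 ± 0.0761 TPM.

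Much of the variation lay between mice of the same group. Vehicle replicate 2 had the highest value of the 6 libraries in 26 of the 40 genes (65%), against 20.4% of all tested genes, and Paro/Neo replicate 3 had the lowest in 24 (60%), against 12.2%. Measured from each gene's Vehicle mean, the median over the 40 genes was -0.19, 0.23 and 0.02 in Vehicle replicates 1 to 3 and -0.11, -0.16 and -0.40 in Paro/Neo replicates 1 to 3. Vehicle replicate 1 was therefore below Paro/Neo replicates 1 and 2 by this measure, with 37 genes under the Vehicle mean against 27 and 31. The sum over the 35 genes under 5 TPM was 39.3, 70.5 and 53.5 TPM in Vehicle and 45.3, 43.2 and 27.7 TPM in Paro/Neo, or 54.4 ± 15.6 and 38.7 ± 9.59 TPM. The 2 groups overlap in that sum, since 1 control lay below 2 treated hearts. Without Vehicle replicate 2 the median difference over the 40 was -0.13 and 32 genes were lower, against 51.1% of all features. Without Paro/Neo replicate 3 it was -0.13 and 30 were lower, against 54.8%.

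**Figure D3:**
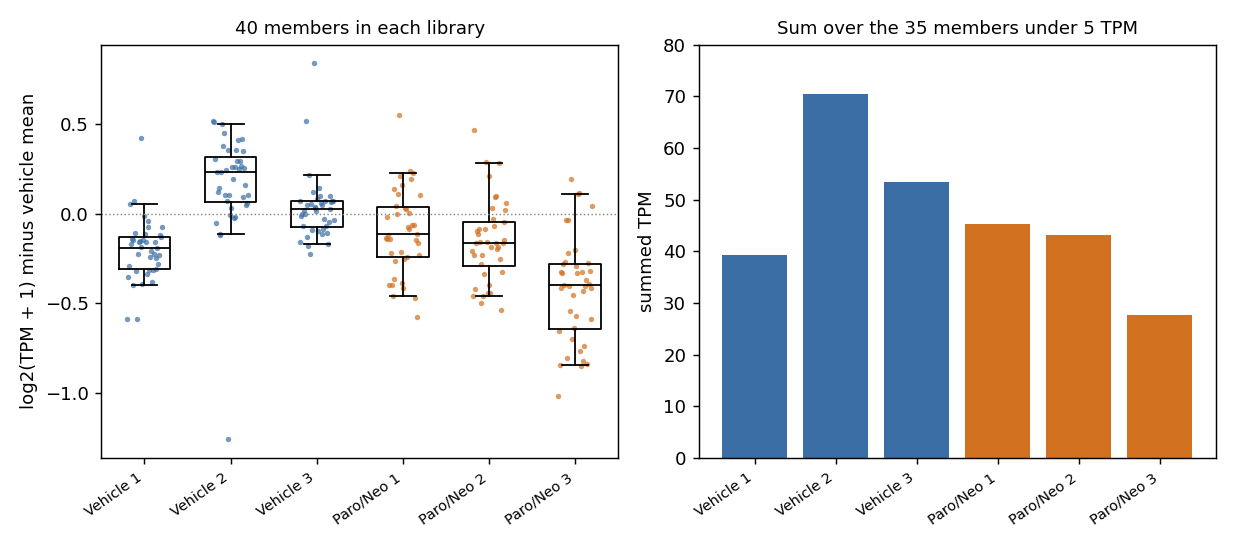
Left, each gene's log2(TPM + 1) minus its Vehicle mean in each library, with boxes for the quartiles, a line for the median and whiskers from the 5th to the 95th percentile. Right, the summed TPM of the 35 genes under 5 TPM, which runs from 27.7 in Paro/Neo replicate 3 to 70.5 in Vehicle replicate 2.

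The count of genes whose groups do not overlap moved with the libraries too. It was 20 without Vehicle replicate 1, the lowest control, against 11.9% of all features lower without overlap in the same 5 libraries. Leaving out Paro/Neo replicate 1 gave 12, all lower, against 11.1% of all features lower. Leaving out Paro/Neo replicate 2 gave 12 lower and 1 higher, against 11.5% and 11.2%. Without Vehicle replicate 2 there were 8 lower and 1 higher, against 11.5% and 9.66%. Without Vehicle replicate 3 there were 6 lower and 1 higher, against 12.3% and 8.82%. The same 6 and 1 were found without Paro/Neo replicate 3, the lowest treated library, against 13.6% and 9.69%. At the other end, 17 of the 40 genes had fewer than 10 reads in at least 1 library, so their counting error is large. The 5 genes at 5 TPM or more were lower in 3 and higher in 2, with a median difference of -0.02. Among these 5, Cenpf had the widest interval of the tested genes. The 35 under 5 TPM were lower in 31, with a median of -0.25. Whether the level of a gene or its counting error bears on its difference was not tested. All features with a mean from 0.05 to 5 TPM were lower in 57.1%, with a median of -0.03.

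Genes of the same pathway outside the 40 were taken from 3 further lists. Of 50 other mitotic genes, such as Foxm1, Mybl2 and the further kinesins and centromere subunits, 35 had a lower and 15 a higher treated mean, with a median difference of -0.06, and 0 of 31 tested passed. The 3 with the smallest p were Pttg1, Cep55 and Tacc3. Pttg1 encodes securin, the inhibitor of separase, and was at 6.65 ± 0.671 and 8.45 ± 0.604 TPM with all treated hearts above all controls (adjusted p = 0.595). Cep55, which recruits the abscission machinery to the midbody, was at 1.39 ± 0.345 and 0.839 ± 0.149 TPM, and Tacc3, a spindle microtubule protein, at 2.92 ± 0.475 and 2.09 ± 0.292 TPM. In both the treated hearts were below the controls, with adjusted p of 0.651 and 0.655.

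The 15 subunits of the anaphase-promoting complex and its activator Fzr1, which also act outside mitosis, split into 7 lower and 8 higher with a median of 0.01, and 0 passed. The 3 with the smallest p were Cdc23, Cdc16 and Anapc4, with adjusted p from 0.739 to 0.768. Of 12 inhibitory and checkpoint kinases and subunits of DREAM and its MuvB core, 4 were lower and 8 higher with a median of 0.07, and 0 of 11 tested passed. Wee1, the kinase that puts the inhibitory phosphate on Cdk1, was at 8.86, 11.3 and 11.4 TPM in Vehicle and at 12.7, 15.6 and 15.7 TPM in Paro/Neo. All treated hearts were above all controls, with a difference of 0.45 and an adjusted p of 0.503. E2f4, the E2F subunit of DREAM, was at 12.2 ± 0.924 and 9.47 ± 0.653 TPM (adjusted p = 0.533), and Rbl2, its pocket protein p130, at 21.0 ± 1.54 and 24.0 ± 1.62 TPM (adjusted p = 0.724).

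Markers of the cell types of the ventricle were read beside these values. Cardiomyocyte markers summed to 134563 to 143959 TPM in Vehicle and 128527 to 157783 TPM in Paro/Neo, with 5 of 10 lower, so the labelled tissue shows its defining genes. Endothelial markers were lower in 9 of 10 (summed 4246 to 4705 and 3553 to 4132 TPM) and fibroblast markers in 10 of 10 (2831 to 2956 and 2491 to 2759 TPM), and for both lists the summed levels of the groups do not overlap. Macrophage and monocyte markers were higher in 9 of 10 (573 to 701 and 680 to 722 TPM) and lymphocyte markers in 9 of 10 (2.47 to 4.81 and 4.66 to 6.89 TPM). Smooth muscle and pericyte markers were lower in 7 of 10 (1312 to 1466 and 1356 to 1502 TPM) and erythroid genes in 8 of 8 (2366 to 5001 and 2435 to 3802 TPM). All 8 erythroid genes were highest in Vehicle replicate 3, 4 were lowest in Vehicle replicate 1, and the groups overlap in each. The smooth muscle and pericyte sums rest largely on Des, with means of 752 and 815 TPM, and the median difference of that list was -0.15. For their low level only 3 of 10 lymphocyte markers and 7 of 8 erythroid genes were tested, and on the other lists all were. No tested marker passed the adjusted threshold on any of these 7 lists, and no marker was at 0 in all 6 libraries. Paro/Neo replicate 1 gave the lowest value in 7 of 10 endothelial markers, 7 of 10 fibroblast markers and 3 of the 40 mitotic genes. Paro/Neo replicate 3 gave it in 1 endothelial marker, 3 fibroblast markers and 24 mitotic genes. Over all tested genes, Paro/Neo replicate 1 was lowest in 31.8% and Paro/Neo replicate 3 in 12.2%. The part of these cell types in the levels of the mitotic genes was not tested.

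**Figure D4:**
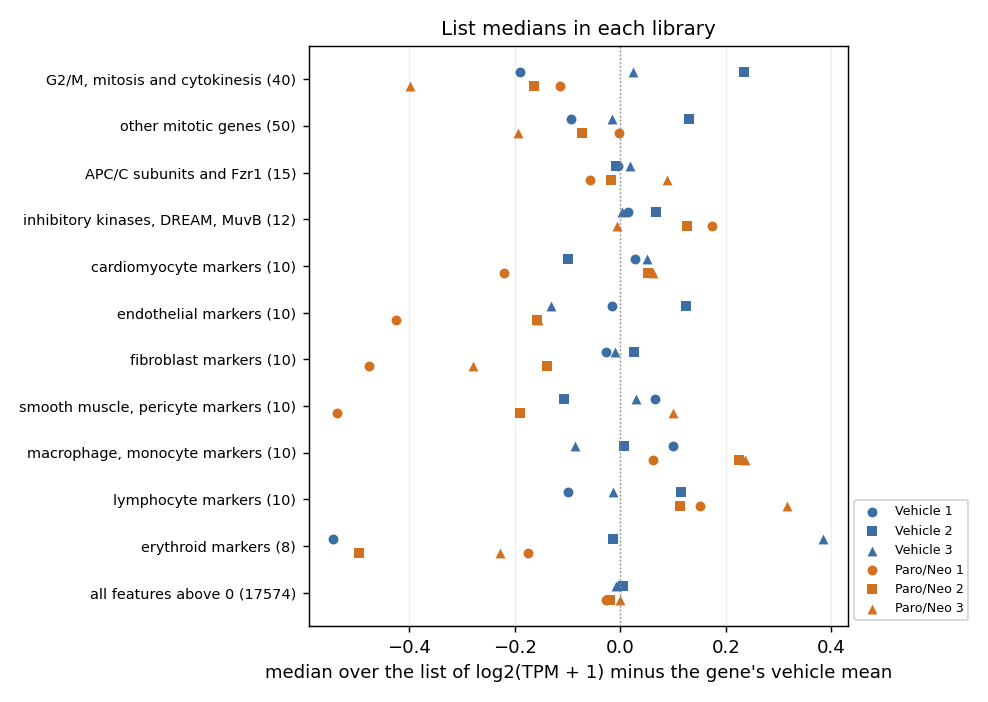
Median over each list of log2(TPM + 1) minus the gene's Vehicle mean, 1 marker per library, with the number of genes in parentheses and Vehicle in blue and Paro/Neo in orange. The 40 genes run from -0.40 in Paro/Neo replicate 3 to 0.23 in Vehicle replicate 2, the other mitotic genes from -0.19 to 0.13 in the same 2 libraries, and all features from -0.03 to 0.01.

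As a measure of what 3 mice a group can show, the 95% intervals of the 33 tested genes had a median size of 0.46 to either side on the log2 scale. In simulated libraries 56% of genes changed 2-fold were called, with these genes drawn from all 13314 tested. Of the 33 tested mitotic genes 28 were under 5 TPM, where log2(TPM + 1) understates a change. The share called among genes at so low a level was not measured. An adjusted p above the threshold here therefore does not show that a gene was at the same level in both groups. Nor can an exact permutation test of 3 against 3 go below a two-sided p of 0.1.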

How the data were processed

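Per the labels' protocols, ventricles of snap-frozen hearts were powdered, RNA with an integrity number over 7 was kept, and stranded mRNA libraries (KAPA mRNA HyperPrep) were read at 76 bp, with 1 mouse per library and 3 per group. STAR 2.5.3a, FastQC 0.11.5, edgeR, Subread and featureCounts are named, in roles not stated, per the submitters' processing notes, with mm10 as the build. No source used here gives the annotation, the strand setting or the filter on features. The authors deposited 1 table of TPM values, 18158 features by 6 libraries.

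From it, log2(TPM + 1) was fitted by lmFit and trended eBayes (limma 3.58.1, R 4.3.3), two-sided, for genes with a mean of at least 0.5 TPM, with Benjamini-Hochberg adjustment at 0.05 over all 13314. Counts and medians over lists use every gene above 0. Reads were inferred from the ratios of TPM between libraries, within 0.001 of a whole read for all 17574 features above 0. In simulated libraries of the 13314 genes with 200 changed, drawn at random from all of them, 56% of 2-fold and 86% of 4-fold changes were called, and 4 unchanged genes.

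The members and lists were chosen with earlier results of these data known. Members given in full are those with the smallest p and the highest TPM in each role, and Cdk1, Ccnb1, Top2a, Mki67, Aurkb and Anln. From the further lists the 3 with the smallest p are named. Birc5 and Cenpf, given with library values outside this rule, were chosen after their values were seen. Promoters shown are of the genes with the smallest p, with Cdk1 and Ccnb2. Gene positions and exon overlaps are from GENCODE M21 (GRCm38). Knl1, Sgo1, Sgo2a and Adgre1 were read under older symbols. Alternatives were another pseudocount, filters, scaling, library weights, voom on the inferred reads, each library left out and a replicate block.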

Additional observations from a re-analysis of the deposited data

How the results depend on the processing

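Of the 40 genes, 0 passed the adjusted threshold under any of the 14 alternatives, and their median log2 difference stayed below 0, from -0.41 (voom on inferred reads) to -0.13 (without Vehicle replicate 2). The number lower was 33 to 36 of 40 under the other scaling, pseudocount, weights and voom, 30 to 36 with 1 library left out, and 22 of 25 with either filter at 1 TPM (1 TPM in 3 of 6 libraries, or a mean of 1 TPM), where fewer genes are counted. The number whose groups do not overlap was 7 to 20 with 1 library left out, against 6. Over all features the share also went up, from 7.02% lower and 5.5% higher to 11.1% to 13.6% lower and 8.82% to 11.2% higher, as fewer libraries leave less room for overlap. Of 26 named genes 24 kept their direction throughout. Without Paro/Neo replicate 3 the log2 difference of Nusap1 turned to 0.036 (over all left-out libraries -0.49 to 0.036) and that of Top2a to 0.0508 (-0.42 to 0.0508). The cause was not tested.

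Libraries with the same number in the sample titles did not deviate together across groups (correlations of -0.05, -0.04 and -0.11). No label says whether a shared number marks paired mice, and correlations over so few libraries cannot decide it. The sample descriptions number the treated libraries 2, 3 and 4, and the 2 pairs these numbers give correlated at -0.04 and 0.01. With the title number as a replicate block the median was -0.25, 34 genes were lower, 0 passed (smallest adjusted p 0.607), and 15 genes were called in the whole table against 14. Counts of all genes called ranged from 0 (without Vehicle replicate 3 or Paro/Neo replicate 1) to 30 (without Paro/Neo replicate 2), with 25 under array weights and 26 with voom. Depth limits the 17 genes under 10 reads in some library.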
